A study of Mus musculus with 5 samples.

Results

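The genes Hmgcs1, Idi1, Fdps, Fdft1, Sqle, Lss, Cyp51 and Insig1, served as 8 readouts of cholesterol synthesis and of the transcription factor SREBP2, out of 55471 genes summed from the deposited tables. They were matched by symbol as enzymes of the pathway, with Insig1, and all 8 passed the filter on low counts among 12024 tested genes. The RNA came from a piece of frozen colon of male C57BL/6 mice aged 11 weeks, 3 days after induction of colitis with TNBS (trinitrobenzene sulfonic acid, which inflames the colon by modifying its proteins). The groups were 2 libraries from mice given vehicle and 3 from mice given propyzamide, a benzamide weed killer. Every mouse in both groups received TNBS, and colon without TNBS was not analysed here. The sources used here give neither dose and route nor the segment of colon. The labels speak of a mouse for each library but give no animal identifiers, so the p-values cover only the spread among these libraries.

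Cholesterol is built from acetyl-CoA by way of mevalonate, isoprenoid diphosphates, squalene and lanosterol. When the endoplasmic reticulum is poor in sterol, the escort protein SCAP carries SREBP2 to the Golgi, where proteases release the part that enters the nucleus and activates the genes of the pathway and of sterol uptake. When sterol is plentiful, INSIG proteins hold SCAP back. In the gut, epithelial cells both make sterol for their own membranes and take it up from the lumen. Insig1 is itself an SREBP target, which makes it a readout of the same control.

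The total estimated count lay between 1573592 and 2706840 per library, and 823540 to 1328793 counts lay outside rRNA-like loci and mitochondrial genes. CPM here is counts per 1e6 of the library size after TMM scaling (a correction for composition). The TMM factor was 1.61 in vehicle replicate 1, against 0.797 to 1.10 in the other libraries, so vehicle replicate 1 is the library whose values depend most on that step. A background estimated from olfactory and vomeronasal receptor genes, which colon should not express, took 9.62% and 7.48% of the remaining counts in the vehicle libraries but 0.495%, 5.10% and 1.84% in those of propyzamide. The members stood well above it. The lowest was Idi1 in vehicle replicate 2, at 5.92 times the level expected for its length. Markers of general epithelium and of absorptive colonocytes were detected in every library, 10 of 10 each. Each group had a second index sequence of its own, so an index batch and the treatment cannot be told apart.

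None of the 8 members passed the test between propyzamide and vehicle, with 0 higher and 0 lower at an adjusted p under 0.05 (edgeR quasi-likelihood test, Benjamini-Hochberg adjustment over all tested genes). Among all 12024 tested genes 1.9% passed, 0.69% higher and 1.21% lower. Of the members, 6 stood higher in propyzamide and 2, Fdps and Insig1, stood slightly lower. The median log2 fold change over the 8 was 0.85, against -0.018 over all tested genes. At an unadjusted p under 0.05 there were 2 of 8, Cyp51 and Sqle, where 18.2% of all tested genes lay. DESeq2 called 0 of 8 as well, with 3 at an unadjusted p under 0.05. That run held 37309 genes, without the filter on low counts. Its share of all genes at an unadjusted p under 0.05 was not counted, so the 3 have no background beside them. In simulated data the edgeR test recovered 7.41% of 2-fold changes, so a missed threshold does not show that a member was unchanged. In 5 of the 8 the CPM values of the groups did not overlap, all with propyzamide higher. Over all tested genes 37.5% did not overlap, 16.7% with propyzamide higher and 20.8% with propyzamide lower.

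Hmgcs1 encodes the cytosolic synthase that makes HMG-CoA, the entry to the mevalonate route. It stood at 92.6 and 35.2 CPM in vehicle and at 121, 113 and 121 CPM in propyzamide. The propyzamide libraries lay close together and above both vehicle libraries, which differed from each other by 2.63-fold. The log2 fold change was 0.88 ± 0.42 (SE), with a 95% interval from -0.021 to 1.79 and an edgeR adjusted p of 0.288. Idi1 encodes the isomerase that interconverts the C5 isoprenoid diphosphates. Its level was 36.4 and 7.94 CPM in vehicle and 45.2, 43.1 and 39.6 CPM in propyzamide. The groups did not overlap, but vehicle replicate 1 was near the propyzamide values and vehicle replicate 2 was 4.58-fold below it. The fold change was 0.92 ± 0.51 (log2, SE; edgeR adjusted p = 0.375), and its interval, from -0.20 to 2.03, was the widest of the 8.

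Fdps encodes farnesyl diphosphate synthase, whose product feeds sterols and the other isoprenoids. It stood at 69.5 and 26.1 CPM in vehicle and at 51, 29.8 and 35.9 CPM in propyzamide. The vehicle libraries held both the highest and the lowest value, so the groups overlapped fully. Its log2 fold change was -0.30 ± 0.44 (SE; edgeR adjusted p = 0.785), with an interval from -1.25 to 0.65.

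Fdft1, squalene synthase, makes the committed step to sterols. Its level was 45.1 and 18.7 CPM in vehicle and 68.3, 51.8 and 49.9 CPM in propyzamide. All propyzamide values were above both vehicle values, though the lowest of them exceeded vehicle replicate 1 by little. The fold change was 0.82 ± 0.42 (log2, SE; edgeR adjusted p = 0.330; interval -0.091 to 1.73). Sqle, squalene epoxidase, is a rate-limiting oxygen-dependent step. It stood at 38 and 25.0 CPM in vehicle and at 61.9, 73.4 and 45.1 CPM in propyzamide. The groups did not overlap and the spread was of similar size in each. The fold change was 0.93 ± 0.38 (log2, SE), its interval ran from 0.097 to 1.76, and its edgeR adjusted p was 0.221.

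Lss, lanosterol synthase, closes squalene epoxide into the first sterol. Its values were 28.5 and 19.3 CPM in vehicle against 46.6, 27.7 and 32.9 CPM in propyzamide. Propyzamide replicate 2 fell just under vehicle replicate 1, so the groups overlapped. Lss differed by 0.58 ± 0.40 (log2, SE; edgeR adjusted p = 0.486; interval -0.28 to 1.44). Cyp51 encodes the lanosterol demethylase, a cytochrome P450. It stood at 49.6 and 26.1 CPM in vehicle, a mean of 37.9 ± 16.6 (SD, n = 2), and at 70.3, 80.6 and 79.8 CPM in propyzamide, a mean of 76.9 ± 5.68 (SD, n = 3). This was the largest difference among the 8, at 1.01 ± 0.38 (log2, SE), with an interval from 0.19 to 1.83 and an edgeR adjusted p of 0.178.

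Insig1 encodes the protein that retains SCAP when sterol is plentiful. It stood at 40.9 and 42.0 CPM in vehicle and at 46.6, 43.6 and 23.7 CPM in propyzamide. The other libraries were nearly level and propyzamide replicate 3 was low. The fold change was -0.12 ± 0.38 (log2, SE; edgeR adjusted p = 0.914), and the interval from -0.95 to 0.71 leaves room for a change of either sign.

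**Figure D1:**
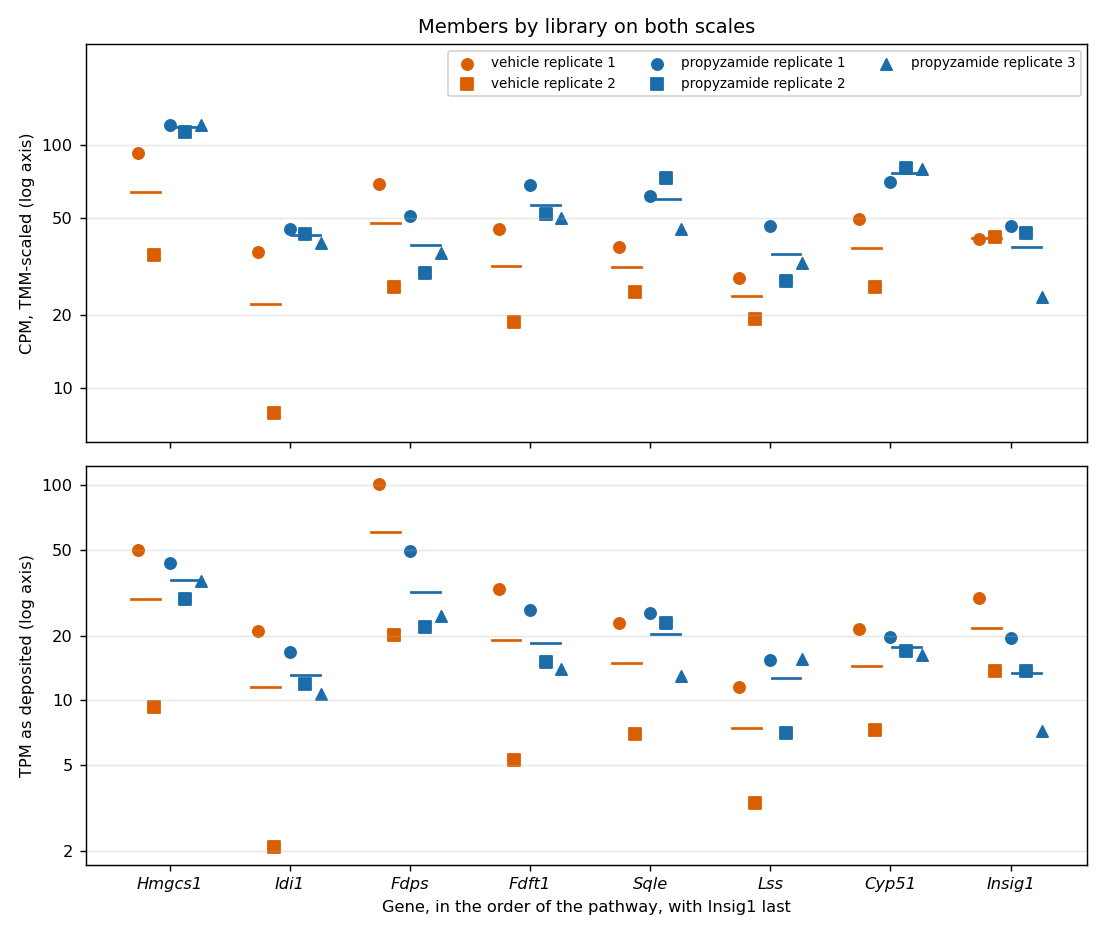
Level of each member in each library, as TMM-scaled CPM (upper panel) and as the authors' TPM (lower panel), both on log axes, with short lines at the group means. In CPM the 3 propyzamide libraries lie above both vehicle libraries for Hmgcs1, Idi1, Fdft1, Sqle and Cyp51, and in TPM the groups overlap for all 8 genes.

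On the authors' TPM scale, which corrects for transcript length but has no TMM step, the groups overlapped for all 8 members, with 0 separated where 28.5% of all tested genes were. Vehicle replicate 1 held the highest TPM for 6 of the 8 and vehicle replicate 2 the lowest for 7. Hmgcs1, for instance, was at 50.1 and 9.33 TPM in vehicle and at 43.8, 29.6 and 35.9 TPM in propyzamide. The order in TPM was not counted over all tested genes, so it cannot be read as particular to the members. Of the total counts, rRNA-like loci took 26.3% and 43.6% in vehicle and 40.9%, 36.7% and 41.6% in propyzamide. That share was thus lowest in vehicle replicate 1 and highest in vehicle replicate 2, and its part in the TPM order was not tested. With limma on log2(TPM + 1) the median over the members was 0.51, in a run whose median over all genes was -0.39. Relative to the median of all genes the members thus stood at 0.91 there, beside 0.87 in edgeR. Single members moved more than the median did: on that scale Cyp51 stood at 0.45, Sqle at 0.58 and Insig1 at -0.66. The distance of the members from the other genes was therefore similar on both scales, while their distance from 0 was not.

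TPM values also allow the genes to be ordered within a group. In propyzamide the order of mean TPM was Hmgcs1 at 36.4 ± 7.10, Fdps at 32.1 ± 15.3, Sqle at 20.5 ± 6.57, Fdft1 at 18.5 ± 6.90, Cyp51 at 17.7 ± 1.85, Insig1 at 13.5 ± 6.17, Idi1 at 13.1 ± 3.21 and Lss at 12.7 ± 4.83 (SD, n = 3). Neighbours in that order differed by less than the larger of their SDs. In vehicle Fdps stood first, at 101 and 20.2 TPM. Fdps made up 34.7% and 29.6% of the summed TPM of the 8 in vehicle and 22.9%, 15.7% and 18.0% in propyzamide. These shares did not overlap between the groups, and since they are ratios within a library they do not depend on the scaling between libraries. They were singled out after the values were seen and were not tested.

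Vehicle replicate 2 had the lowest CPM of the 5 libraries for 7 of the 8 members, Insig1 being the exception, where it was lowest for 19.9% of all tested genes. Summed over the 8, the level was 401 and 200.3 CPM in vehicle libraries and 511, 464 and 427 CPM in propyzamide libraries. The difference between the groups therefore leaned on vehicle replicate 2. Without it, the fold changes were 0.41 for Hmgcs1, 0.29 for Idi1, -0.77 for Fdps, 0.39 for Fdft1, 0.72 for Sqle, 0.39 for Lss, 0.68 for Cyp51 and -0.044 for Insig1, with a median of 0.39. Without vehicle replicate 1, they were 1.73, 2.40, 0.56, 1.58, 1.25, 0.87, 1.54 and -0.16 in the same order, with a median of 1.39. Without propyzamide replicate 1, Lss stood at 0.29 and Fdps at -0.60. Without propyzamide replicate 3, Insig1 stood at 0.12. No member passed the threshold in any of the 17 alternatives, and the smallest adjusted p among them was 0.114, for Idi1 with a replicate block.

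**Figure D2:**
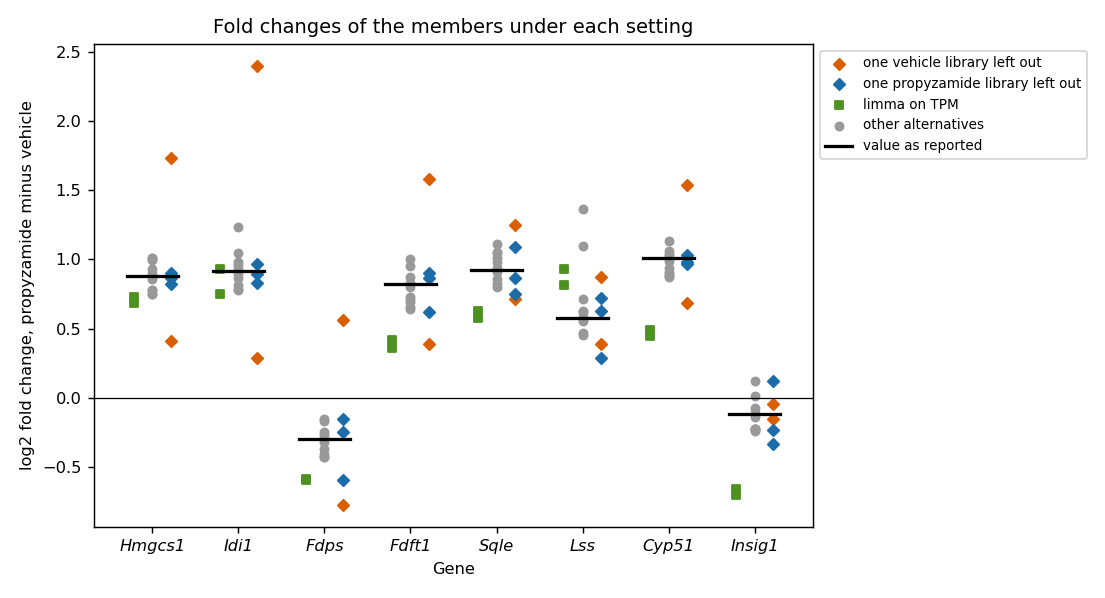
Log2 fold change of each member (vertical axis) as reported (black line) and under each alternative (points). For Idi1 the values run from 0.29 without vehicle replicate 2 to 2.40 without vehicle replicate 1, for Lss the highest, 1.36, comes with the length offset, and Fdps and Insig1 are the 2 members whose sign changes.

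The start regions of the members were also compared, as a description without a test. RefSeq (GRCm38.p6) gave the 250 bases before and 50 after the annotated start for 5 of the 8 members: Hmgcs1, Idi1, Lss, Cyp51 and Insig1. The strands were both searched for TCACNCCAC, the core of the sterol regulatory element that SREBP binds, for the looser TCACNNCA, which contains every match of the stricter motif, for the CCAAT box, bound by NF-Y, and for the GC box GGGCGG, bound by Sp1. The stricter element was found in 1 of the 5, Hmgcs1, and in 1.24% of all 32851 promoters of this length. The looser one was found in 2 of the 5, Hmgcs1 and Cyp51, and in 13.8% of all. Of the 5, Idi1 and Lss had positive fold changes like Hmgcs1 and Cyp51 but carried neither form. The CCAAT box was present in 5 of 5 and in 37.4% of all, and the GC box in 5 of 5 and in 35.7% of all. Among 15 promoters of 12 other enzymes of the pathway, the stricter element was found in 0, the looser in 7, the CCAAT box in 11 and the GC box in 12. The regions of 3 are shown, with matches to the sterol element, strict or loose, and the CCAAT box, which reads ATTGG where it lies on the other strand, in capitals: Hmgcs1 (chr13:119690101-119690400, plus strand) and Cyp51 (chr5:4104648-4104947, minus strand), which stood higher in propyzamide, and Insig1 (chr5:28071162-28071461, plus strand), which did not.
Hmgcs1: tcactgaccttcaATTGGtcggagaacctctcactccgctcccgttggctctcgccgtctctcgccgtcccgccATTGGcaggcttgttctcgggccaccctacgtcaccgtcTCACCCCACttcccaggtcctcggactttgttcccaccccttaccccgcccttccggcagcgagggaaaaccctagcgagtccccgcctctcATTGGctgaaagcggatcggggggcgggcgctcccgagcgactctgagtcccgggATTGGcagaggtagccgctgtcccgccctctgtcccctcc
Cyp51: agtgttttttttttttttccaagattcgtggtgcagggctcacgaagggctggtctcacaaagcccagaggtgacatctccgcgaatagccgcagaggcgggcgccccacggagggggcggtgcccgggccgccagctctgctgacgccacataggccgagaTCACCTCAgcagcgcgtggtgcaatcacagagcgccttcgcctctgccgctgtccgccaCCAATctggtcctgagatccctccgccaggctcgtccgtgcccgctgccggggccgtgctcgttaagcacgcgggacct
Insig1: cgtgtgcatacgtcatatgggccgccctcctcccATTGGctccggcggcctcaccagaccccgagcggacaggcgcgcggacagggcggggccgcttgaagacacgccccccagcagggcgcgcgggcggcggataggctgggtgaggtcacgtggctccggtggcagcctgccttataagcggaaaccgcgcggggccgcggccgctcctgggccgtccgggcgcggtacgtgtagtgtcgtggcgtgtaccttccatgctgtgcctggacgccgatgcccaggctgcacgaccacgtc
The Hmgcs1 match TCACCCCAC began 137 bases before the start and the Cyp51 match TCACCTCA began 88 bases before it, with a CCAAT box 29 bases before the start of Cyp51. A match is only a run of letters, and its absence from a window of this length says nothing about SREBP2.

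**Figure D3:**
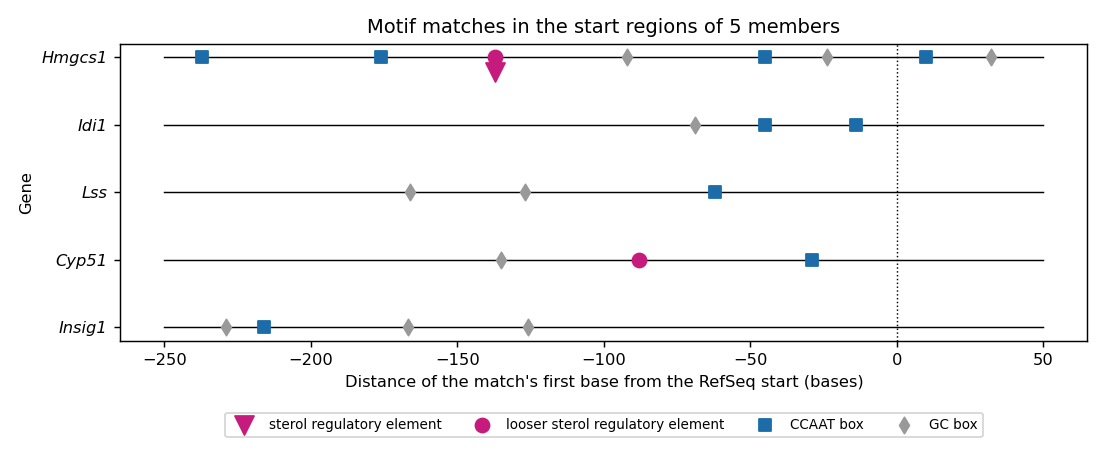
Positions of motif matches on either strand in the start regions of 5 members, as the distance of the first base from the RefSeq start. Hmgcs1 carries the sterol regulatory element, 137 bases before the start, Cyp51 carries only the looser form, 88 bases before it, and all 5 carry at least 1 CCAAT box and 1 GC box.

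Of 14 other enzymes of the pathway, all tested, 0 passed in either direction (edgeR, with 2 at an unadjusted p under 0.05 and 0 by DESeq2). Their median log2 fold change was 0.049, with 8 positive and 6 negative. Hsd17b7, a sterol ketoreductase, stood at 6.62 and 4.54 CPM against 20.1, 14.4 and 23.1 CPM. The vehicle values were only 3.39 and 2.17 times the background expected for its length. The fold change was 1.75 ± 0.52 (log2, SE; edgeR adjusted p = 0.0966), which passed only without a filter on low counts. The CPM values of 5 of the 14 did not overlap between groups, 3 with propyzamide higher and 2 with propyzamide lower, near the 37.5% of all tested genes.

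**Figure D4:**
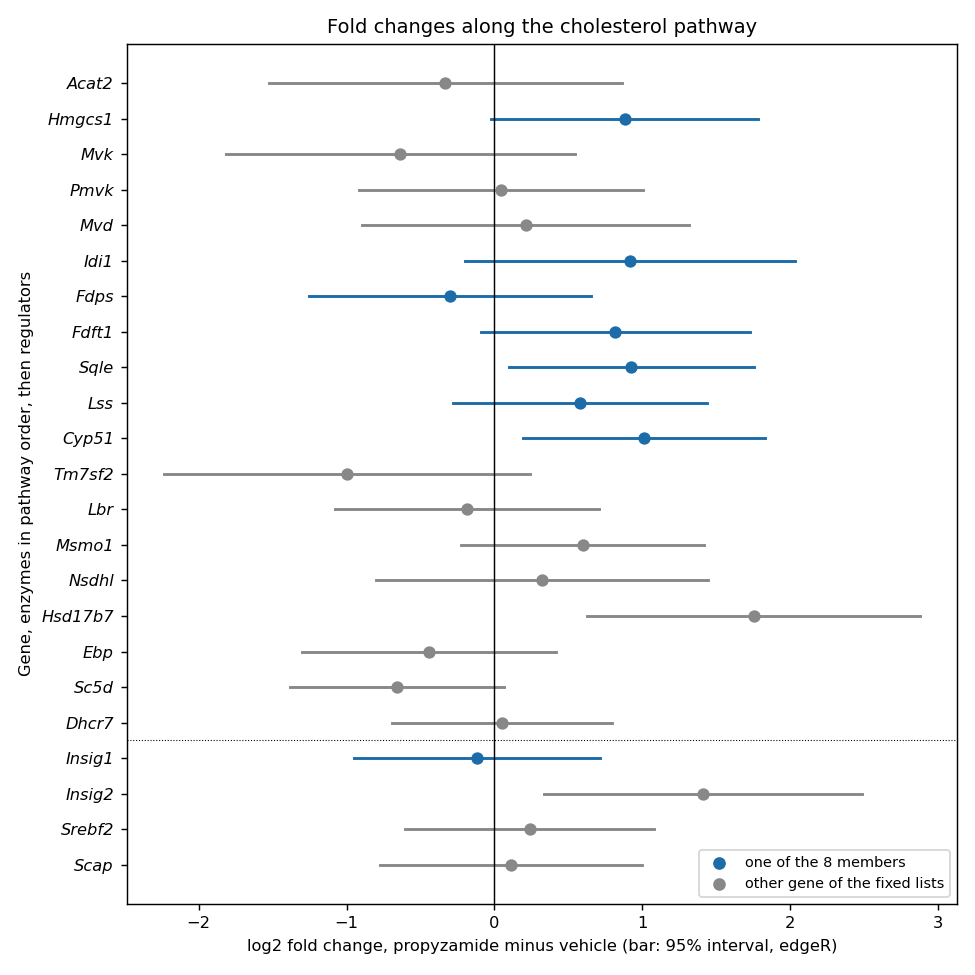
Log2 fold change, propyzamide minus vehicle, of enzymes in pathway order and, below the dotted line, of Insig1, Insig2, Srebf2 and Scap, with 95% intervals from edgeR. Blue marks the 8 members and grey the other genes. The intervals of Sqle, Cyp51, Hsd17b7 and Insig2 lie above 0, and none of the genes shown passed at an adjusted p under 0.05. Not every regulator is drawn: the interval of Mbtps1, left out here, ran from -1.91 to -0.22, below 0.

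The genes that control SREBP processing gave 0 of 6 past the threshold, with a median of -0.091. Srebf2, which encodes SREBP2, stood at 61.6 and 74.9 CPM in vehicle and at 98.9, 47.2 and 95 CPM in propyzamide. The propyzamide values lay on both sides of vehicle (0.24 ± 0.39, log2 and SE; edgeR adjusted p = 0.811). Srebf1, which encodes SREBP1, stood at -0.34 ± 0.42 (edgeR adjusted p = 0.730). Insig2, the paralog of Insig1, stood at 17.8 and 6.24 CPM against 24.5, 44.1 and 29.8 CPM, without overlap, at 1.41 ± 0.50 (log2, SE; edgeR adjusted p = 0.157), and at 0.93 and 2.36 without vehicle replicates 2 and 1. With limma on log2(TPM + 1) Insig2 stood at 0.37 and with the length offset at 0.55, and its TPM values overlapped, with vehicle replicate 1 highest at 27.5 TPM. Mbtps1, the Golgi protease that first cuts SREBP, stood at 34.3 and 42.6 CPM against 16.0, 14.4 and 25.0 CPM, at -1.07 ± 0.39 (edgeR adjusted p = 0.168). Its value was 0.088 when protein-coding transcripts alone were summed.

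Sterol uptake and transfer genes gave 0 of 6 tested past the threshold, with a median of -0.37, and Npc1l1, the gut cholesterol importer, had too few counts to be tested. Npc2, the soluble carrier of lysosomal cholesterol, stood at 142 and 122 CPM against 56.1, 54.4 and 34.7 CPM. Its fold change of -1.44 ± 0.35 just missed the threshold (edgeR adjusted p = 0.0511, and 0.0290 to 0.360 over 17 alternatives, of which it passed 6). Scarb1, a lipoprotein receptor, stood at -1.14 ± 0.67 (edgeR adjusted p = 0.405).

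Genes of the oxysterol receptor LXR and of sterol efflux gave 0 of 6 past the threshold with a median of -0.97, 1 positive and 5 negative. Among all 12024 tested genes 5905 were positive and 6119 negative. Abcg5, which with Abcg8 returns sterol to the lumen, had 34 and 10 counts in vehicle and 2, 2 and 1 in propyzamide, or 14.1 and 5.67 CPM against 0.680, 1.03 and 0.609 CPM. It stood at -3.60 ± 0.87 (log2, SE; edgeR adjusted p = 0.0514), a call it reached in 5 of the 13 alternatives that tested it. Its propyzamide values were 10.7, 1.36 and 2.31 times background, and it was too low to test once background was subtracted. Abcg8 was too low to test. Abcg1, an exporter to lipoproteins, stood at 10.3 and 11.3 CPM against 3.74, 3.59 and 3.04 CPM (-1.62 ± 0.63, log2 and SE; edgeR adjusted p = 0.195), with propyzamide replicate 2 at 1.83 times background. Cholesterol ester and oxysterol enzymes gave 0 of 5 tested past the threshold, with Cyp27a1, a mitochondrial sterol hydroxylase, at -1.71 ± 0.63 and Nceh1, an ester hydrolase, at 1.06 ± 0.49 (edgeR adjusted p = 0.172 and 0.277). Isoprenoid branch enzymes gave 0 of 7, with a median of -0.049. Of these, Rabggta and Fntb, subunits of prenyl transferases, stood at -1.08 ± 0.59 and -0.81 ± 0.56 (edgeR adjusted p = 0.360 and 0.488). Over these lists and the enzymes above, edgeR called none, and 8 of the 44 tested genes lay at an unadjusted p under 0.05, the same 18.2% as among all tested genes.

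The neighbouring fatty acid list, targets of SREBP1, was the one related list with calls. Of its 10 genes 2 rose, 1 fell and 7 did not pass, around a median of 0.16. Among all tested genes 0.69% were called higher and 1.21% lower. Me1, malic enzyme, a source of NADPH, rose: its vehicle levels were 3.72 and 2.27 CPM, at 2.23 and 1.55 times background, and its propyzamide levels 19.4, 25.2 and 31.7 CPM (3.02 ± 0.55, log2 and SE; edgeR adjusted p = 0.0210). Elovl6, an elongase of long-chain fatty acids, stood at 24.0 and 18.7 CPM in vehicle and rose to 66.3, 88.8 and 93.8 CPM (1.95 ± 0.38; edgeR adjusted p = 0.0274). Fads2, the first desaturase of polyunsaturated fatty acid synthesis, stood at 121 and 97.6 CPM in vehicle and fell, with propyzamide libraries between 11.0 and 40.1 CPM (-2.17 ± 0.46; edgeR adjusted p = 0.0364). Fasn, fatty acid synthase, was at 62.0 and 65.8 CPM against 87.7, 23.6 and 82.8 CPM, with propyzamide on both sides of vehicle (0.020 ± 0.48; edgeR adjusted p = 0.989). Acly, which makes cytosolic acetyl-CoA for both routes and was picked out after its values were seen, stood at 153 and 91.9 CPM against 52.0, 43.6 and 36.5 CPM (-1.47 ± 0.36; edgeR adjusted p = 0.0514). Me1, Elovl6 and Fads2 all missed the threshold when vehicle replicate 1 was left out (edgeR adjusted p = 0.153, 0.203 and 0.293), without vehicle replicate 2 (0.145, 0.175 and 0.147) and without propyzamide replicate 3 (0.0633, 0.0742 and 0.0897), and Fads2 also without propyzamide replicate 2 (0.0695). All 3 also missed it over protein-coding transcripts (edgeR adjusted p = 0.0789, 0.0926 and 0.112) and with limma on log2(TPM + 0.1) (adjusted p = 0.140, 0.276 and 0.101), and Me1 and Elovl6 missed it with limma on log2(TPM + 1) (adjusted p = 0.0974 and 0.218).

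Cell-type markers also differed between libraries, where 0.69% of all tested genes were called higher and 1.21% lower. General epithelial markers, 10 genes, were close in all libraries, at 5250 and 4476 CPM in sum in vehicle and at 6291, 4766 and 4653 CPM in propyzamide, with 1 of 10 called higher and 0 lower. The summed CPM of the 8 members was 7.63% and 4.47% of the epithelial sum in vehicle and 8.12%, 9.72% and 9.19% in propyzamide. These ratios did not overlap, and neither did the members' sums without that division. How many other genes would separate in such a ratio was not counted. By this ratio vehicle replicate 1 was much nearer to propyzamide than vehicle replicate 2. Absorptive colonocyte markers summed to 2297 and 4051 CPM against 8212, 12444 and 11348 CPM, 2 of 10 called higher. Markers of absorptive enterocytes of the small intestine summed to 46.3 and 52.2 CPM against 305, 1155 and 605 CPM, with 3 of 6 tested called higher. Only 6 of the 11 listed passed the filter on low counts, and they may have passed through the propyzamide libraries, where the sum was higher. Smooth muscle markers were at 504 and 3298 CPM against 5660, 8313 and 9374 CPM with 0 of 10 called, and 0 of the 10 were at 0 in any library. Colonocyte and smooth muscle sums were lowest in vehicle replicate 1, whereas the members were lowest in vehicle replicate 2. The general epithelial sum was also lowest in vehicle replicate 2. Macrophage and neutrophil markers summed to 187 and 399 CPM against 131, 175 and 254 CPM, highest in vehicle replicate 2. Goblet cell markers summed to 9332 and 3208 CPM against 6934, 741 and 4537 CPM, with 1 of 10 called lower. Their part in the values of the members was not tested, and in bulk RNA fewer cells of a type and less RNA per cell cannot be told apart.

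**Figure D5:**
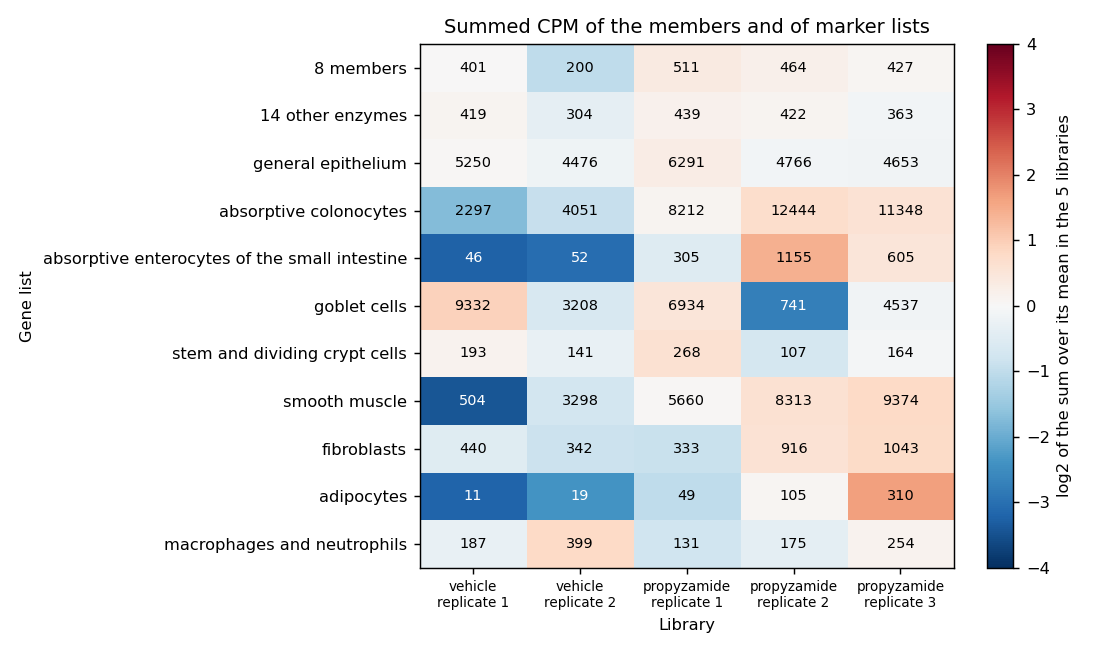
Summed CPM (numbers in the cells) of the 8 members, of 14 other enzymes and of 9 marker lists in each library, coloured by the log2 of the sum over its mean in the 5 libraries. The members are lowest in vehicle replicate 2, at 200.3 CPM, while absorptive markers and smooth muscle are higher in all propyzamide libraries than in vehicle.

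By estimated counts, protein-coding transcripts held at least 78.0% of each member other than Lss in each library, and 38.1% and 57.6% of Lss in vehicle against 79.2%, 55.6% and 80.9% in propyzamide. By TPM, which weighs short transcripts more, protein-coding transcripts held at least 67.1% of the TPM of each other member in each library, but 34.1% and 56.3% of that of Lss in vehicle and 56.4%, 38.4% and 29.1% in propyzamide. The short retained-intron transcript Lss-205 was listed at 0 TPM in both vehicle libraries and at 4.87, 3.06 and 10.5 TPM in propyzamide, which rest on only 3.34, 1.97 and 5.90 estimated counts of a transcript of 425 bases. Full-length Lss-201 was at 3.94 and 1.87 TPM against 8.66, 2.72 and 4.53 TPM, with the groups overlapping. Summed over protein-coding transcripts, the fold change of Lss was 1.10 (log2; edgeR adjusted p = 0.373), and an offset for average transcript length gave 1.36 (edgeR adjusted p = 0.158).

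Near-identical copies and overlapping genes touch several members. Processed pseudogenes at least 90% identical over at least 200 bases numbered 5 for Fdps, 3 for Idi1 and 1 for Fdft1 in GENCODE. The copies of Idi1 took 7.51 and 7.12 counts in vehicle and 0, 0 and 1.68 in propyzamide. In vehicle replicate 2 that equals 51.3% of the count of Idi1 itself, so the low value of Idi1 there is uncertain. Idi1 also shares 323 identical bases with the opposite-strand Gm48574, which had 3 counts in vehicle replicate 2 and 0 in every other library. Copies of Fdps took at most 8.04% of its count in a library. The copy of Fdft1 took 7.51 and 2.49 counts in vehicle and 0, 1.16 and 0 in propyzamide, at most 7.52% of its count. Fdft1 (chromosome 14, 63145150 to 63179578, minus strand, GRCm38) overlaps the opposite-strand Ctsb, with 771 identical bases between transcripts, and the sources used here do not say whether counting used strand. Ctsb had 247 to 577 counts per library, so reads of the shared stretch cannot be told apart from Fdft1. The locus of Cyp51 overlaps the opposite-strand Akap9, which had 96.7 to 213 counts per library, with no shared stretch found by the limits above. Hmgcs1 shares 460 identical bases with the antisense Gm48342, which had 8.92 and 1.03 counts in vehicle and 1.04, 0 and 0 in propyzamide. Hmgcs1 (chromosome 13, 119690379 to 119708260), Sqle (chromosome 15, 59315077 to 59331192) and Insig1 (chromosome 5, 28071363 to 28078662) had no processed pseudogene by these limits.

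Of 5182 genes with a mean log2 CPM of at least 4, leaving out provisional symbols and pseudogene names, those whose profile over the 5 libraries was most like the mean profile of the 8 members were Tnfrsf1a, Prdx3, Rdh10, Uqcrc2 and Fam104a. Their root mean square difference from it on the centred log2(CPM + 1) scale was 0.031 to 0.090, smaller than that of any member, of which Fdft1 was the nearest at 0.151 and Insig1 the farthest at 0.584. Tnfrsf1a, a receptor for tumour necrosis factor, was at 28.1 and 14.2 CPM in vehicle and at 38.7, 32.9 and 29.8 CPM in propyzamide. Likeness to the members' profile was what chose these genes.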

How the data were processed

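The authors deposited 1 table per library with the estimated count (expected count), the TPM and the length of 142647 transcripts, per the file headers. The tools RSEM and kallisto, with no version, and GRCm38 come from the submitters' processing notes, and libraries followed SMART-Seq2, per the labels' protocols. The sources used here state neither aligner settings nor strand use. The deposited TPM values correct for transcript length, per the file headers.

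Estimated counts were summed to genes and rounded. Symbols were matched for 99.4% of identifiers, and coordinates came from GENCODE M21. Genes were tested in 1 model of 5 libraries with edgeR 4.0.16 (R 4.3.3): filterByExpr, TMM, quasi-likelihood test, Benjamini-Hochberg adjustment, threshold 0.05. The SE came from the F statistic. DESeq2 1.42.0 and limma 3.58.1 were alternatives. The gene step was run on simulated data with 200 changed genes. It recovered 7.41% of 2-fold, 48.2% of 4-fold and 90.5% of 8-fold changes, and 2.17% of its calls were false. No libraries were duplicates (chi-square per degree of freedom at least 12.4). Copies were found with blastn. Background came from 1738 olfactory and vomeronasal receptor genes.

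The members and lists were chosen with earlier results of these data known. Named genes were the members, the called genes of each related list or else the 2 of smallest p, and Srebf2, Srebf1 and Fasn. Some genes of these lists are counted but not reported by name here. Of the marker lists whose calls are not given above, adipocytes (7 genes, 3 tested) had 2 called higher, against 0.69% of all tested genes. Adipocyte markers summed to 10.8 and 18.7 CPM in vehicle against 48.6, 105 and 310 CPM in propyzamide. The 3 tested may therefore have passed the filter on low counts through the propyzamide libraries. Stem and dividing crypt cells had 1 of 7 tested called lower, against 1.21% of all. Those for fibroblasts, macrophages and neutrophils, lymphocytes, neurons and glia, and endothelium had 0 called.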

Additional observations from a re-analysis of the deposited data

How the results depend on the processing

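The count of members called was 0 in all 17 alternatives, and their median kept its sign in each, ranging from 0.39 to 1.39 when 1 library was left out. The number of genes called over the whole table was 229. It was 401 with DESeq2, 1327 without a filter on low counts, 148 at 10 CPM in 2 libraries, 490 with limma on log2(TPM + 1), 362 without rRNA-like and mitochondrial genes, 95 with background subtracted, 36 over protein-coding transcripts, and 36 to 499 with 1 library left out. With upper-quartile scaling 79 were higher and 235 lower (74.8% lower, against 63.8%). With limma on log2(TPM + 1) they were 66 and 424 (86.5% lower), and at a pseudocount of 0.1 they were 40 and 237 (85.6% lower). The share of lower calls fell to 46.6% with DESeq2 (214 higher, 187 lower), 52.6% with background subtracted (45 and 50), 50% over protein-coding transcripts (18 and 18) and 36.4% without vehicle replicate 2 (35 and 20). In the related lists outside cholesterol synthesis 3 genes were called. There were 6 with upper-quartile scaling, 6 without the filter, 6 without rRNA-like and mitochondrial genes, 5 with DESeq2, 5 at 10 CPM, 0 with limma on log2(TPM + 0.1), 0 over protein-coding transcripts, and 0 to 5 with 1 library left out. Among the other synthesis enzymes 1, Hsd17b7, was called without the filter (edgeR adjusted p = 0.0478). Summing protein-coding transcripts alone was chosen after seeing the data.

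The replicate number is only a name, and no pairing is stated. The correlation of deviations was 0.170 and 0.147 for same-numbered libraries 1 and 2. With 2 vehicle libraries the deviations mirror each other, at -0.170 and -0.147 for the swapped libraries, so these values cannot decide on pairing. With a replicate block over those 4 libraries, 738 genes, 0 members and 5 related genes were called. Among the members and the genes named by rule the sign turned for 5, and the cause was not tested. Fasn stood at -0.097 with upper-quartile scaling, -0.091 at 10 CPM, -0.60 and -0.66 with limma at pseudocounts 1 and 0.1, -0.44 with the block, -0.0018 without rRNA-like and mitochondrial genes, -0.084 with background subtracted, -0.14 over protein-coding transcripts, -0.034 with the length offset, and -0.31 to 0.41 with 1 library left out, below 0 without vehicle replicate 1 (-0.042), propyzamide replicate 1 (-0.31) or propyzamide replicate 3 (-0.19). Insig1 stood at 0.011 without the filter, 0.12 with the block and -0.33 to 0.12 with 1 library left out, above 0 without propyzamide replicate 3. Srebf2 stood at -0.50, -0.53 and -0.061 with the limma runs and the length offset. Fdps stood at -0.77 to 0.56 with 1 library left out, above 0 without vehicle replicate 1, and Mbtps1 stood at 0.088 over protein-coding transcripts. A count of 1 equals 0.340 to 0.609 CPM, so genes under a few CPM rest on few reads, and no floor was needed for the members, whose lowest count was 14.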
